A study of Mus musculus with 56 samples.

Results

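The nucleus accumbens arrays of BUB/BnJ, NOD/LtJ, P/J and SJL/J mice carried raised levels of cortical genes, and 6 genes stood at least 1 log2 unit above the median of 19 other accumbens arrays in each of them. The series held 56 arrays of mouse brain RNA, 29 of prefrontal cortex and 27 of nucleus accumbens, of which these are 4. They were chosen from earlier values of these same arrays, for high cortical neuron genes such as Slc17a7 and Nrn1. Every gene of the accumbens contrast therefore counts as used by the choice, and its values are a description with no test. The cortex arrays of the same 4 strains were not used in the choice, and tests were made there.

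Each array held RNA pooled from 3 male mice of 1 inbred strain, 8 to 10 weeks old, with no treatment and no engineered allele. The accumbens group set beside the 4 held 1 array each of C57BL/6J, 129S1/SvImJ, BTBR T+ tf/J, SWR/J, C58/J, A/J, PL/J, AKR/J, RIIIS/J, DBA/2J, SM/J, C57BR/cdJ, NZW/LacJ, C3H/HeJ, KK/HlJ, FVB/NJ, MA/MyJ, CBA/J and I/LnJ. Accumbens arrays of BALB/cByJ, NON/LtJ, CE/J and WSB/EiJ were left out. Both regions were cut from neighbouring slices of the brain, the accumbens as a small punch beside the anterior commissure. With 1 pool per strain and region, strains are the replicates, and strain and dissection cannot be told apart on any single array.

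The neocortex is built of layers of excitatory projection neurons that release glutamate, loaded into vesicles by the transporter encoded by Slc17a7, while the accumbens is built mainly of inhibitory spiny projection neurons. Cortical layers, the claustrum and the olfactory cortex each have genes that mark their neurons, such as Cux2 in upper layers, Fezf2 in layer 5, Ccn2 in layer 6b and Nr4a2 in claustrum. Axons from cortex end in the accumbens, but most messenger RNA stays in the cell body, so cortical transcripts are low in a punch of pure striatum. In bulk tissue, more cells of a type and more RNA per cell cannot be told apart.

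Values are log2 of the deposited intensity, and a feature is the brightest probe set of a gene, or a probe set without a single gene name, above log2 5 on at least 13 of the 54 arrays of the 27 paired strains. The 4 arrays carried spiny neuron genes at the level of the 19 other accumbens arrays. Spiny neuron genes averaged 9.50 to 9.68 over 22 genes on the 4 arrays, against 9.16 to 9.85 on the 19, and their summed intensity was 31736 to 36697, against 26372 to 39283. Of these 22 genes, 0 were higher in all 4 arrays and 0 were lower in all 4. The arrays left out averaged 6.74 to 8.64 for the spiny genes. In cortex, the MA/MyJ array stood apart, with a spiny gene mean of 8.62 where the next highest cortex array had 4.90, so cortex results are also given without it. Differences between features matched the labelled strain: each of the 4 accumbens arrays correlated best with its own strain's cortex array, at r = 0.549 in BUB/BnJ, 0.501 in NOD/LtJ, 0.614 in P/J and 0.490 in SJL/J, across features that are not independent. The 3′ to 5′ difference of actin probe sets, a sign of RNA quality, was 1.69 to 2.10 on the 4 arrays and 1.68 to 2.35 on the 19.

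Genes of cortical excitatory neurons averaged 5.23 in BUB/BnJ, 5.22 in NOD/LtJ, 4.65 in P/J and 5.02 in SJL/J over the 16 of 19 listed genes that passed the filter. The 19 arrays lay between 3.84 and 4.43. The lowest of the 4, P/J, lay just inside the choice, and AKR/J at 4.43 and PL/J at 4.38 lay just outside it. The step from P/J to AKR/J was therefore smaller than the span among the 4. Summed intensity of the list was 2078 to 2741 on the 4 arrays, against 1181 to 1810 on the 19. Of the 16 genes, 10 (62.5%) were higher than the median of the 19 in all 4 arrays, against 9.54% of all features. None was lower in all 4, and the choice used such genes, so nothing is read from the share. Zbtb16, Rtn4rl2 and Nwd2, with cortex medians of 8.2, 7.2 and 7.3, were not higher in all 4. Their values on the 4 arrays, 1.98 to 2.75, lay under log2 5.

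**Figure D1:**
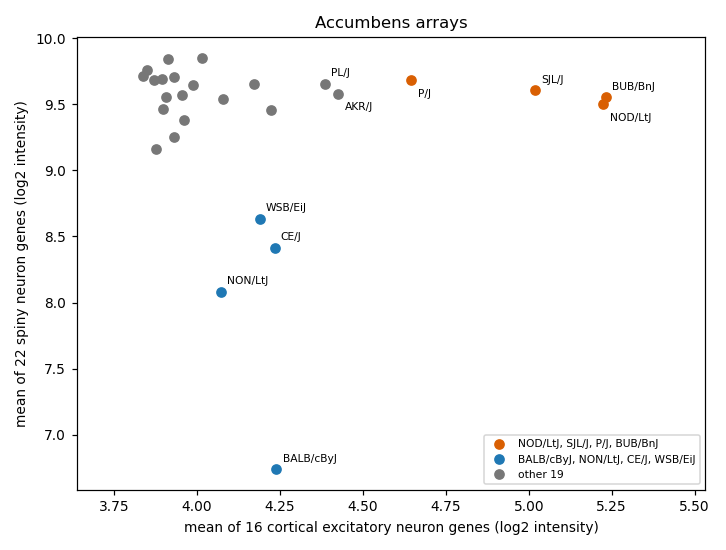
Each point is 1 of the 27 accumbens arrays, with the mean of 16 cortical excitatory neuron genes on the x axis and of 22 spiny neuron genes on the y axis, both in log2 intensity. The 4 chosen arrays lie to the right at 4.65 to 5.23, within the spiny range of the 19, while the 4 arrays left out lie lower on the y axis at 6.74 to 8.64.

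A feature was called raised when each of the 4 arrays was above log2 5 and at least 1 log2 unit above the median of the 19. This held for 6 of 10684 features, or 0.0562%: Slc17a7, Tbr1, Cck, Ccn3, Nptx1 and Car10. All 6 are bright in cortex, and the choice of arrays used this contrast, so nothing is read from the share. Promoter windows from RefSeq (build GRCm38.p6, 250 bases before to 50 after the start) are shown for Slc17a7, Tbr1 and Cck, the raised genes for which the table holds 1 window each, so that their start sites can be compared. The motifs below were searched on both strands. The first was the E-box of NeuroD factors with the letters CAGATG. The second was the core of the T-box element with the letters AGGTGT. The last was the core of the cyclic AMP response element, written TGACG. Capitals mark each match as it reads on the printed strand, and the matches did not overlap.
Slc17a7, chr7:45163671-45163970, plus strand: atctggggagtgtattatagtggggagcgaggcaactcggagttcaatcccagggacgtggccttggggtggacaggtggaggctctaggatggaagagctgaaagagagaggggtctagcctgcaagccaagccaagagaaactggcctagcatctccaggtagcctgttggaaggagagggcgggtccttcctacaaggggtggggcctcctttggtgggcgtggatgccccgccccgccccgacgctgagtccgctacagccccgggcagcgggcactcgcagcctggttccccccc
Tbr1, chr2:61804203-61804502, plus strand: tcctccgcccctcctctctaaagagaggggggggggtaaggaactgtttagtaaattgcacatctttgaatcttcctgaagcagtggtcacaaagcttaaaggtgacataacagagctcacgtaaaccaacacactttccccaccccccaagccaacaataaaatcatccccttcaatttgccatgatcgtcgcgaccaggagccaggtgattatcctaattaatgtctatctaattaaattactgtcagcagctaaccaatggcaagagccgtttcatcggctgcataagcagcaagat
Cck, chr9:121495645-121495944, minus strand: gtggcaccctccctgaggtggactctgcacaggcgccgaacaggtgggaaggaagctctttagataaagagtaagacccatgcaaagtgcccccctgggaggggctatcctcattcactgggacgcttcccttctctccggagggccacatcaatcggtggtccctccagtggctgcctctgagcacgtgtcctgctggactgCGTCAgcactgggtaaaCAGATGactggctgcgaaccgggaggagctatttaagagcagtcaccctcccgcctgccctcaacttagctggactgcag
Only the Cck window held matches, 1 E-box and, on the opposite strand, 1 cyclic AMP response element core. Over the 24 of 29 named genes that were raised or above all 19 arrays and had a window, the E-box was in 1, the T-box core in 3 and the cyclic AMP core in 4. Among 27025 promoter windows of the same length, the E-box was in 17.2%, the T-box core in 13.8% and the cyclic AMP core in 21.0%. These letters are a description of the windows.

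Slc17a7, the vesicular glutamate transporter that marks cortical excitatory neurons, stood at 7.57 in BUB/BnJ, 7.06 in NOD/LtJ, 6.02 in P/J and 6.09 in SJL/J. The lowest of the 19 was 2.71, the median 2.93 and the highest, AKR/J, 5.63. BUB/BnJ was the highest of the 4, and no array of the 19 reached the lowest of them. The mean of the 4 was at least 3.22-fold above log2 5, the floor used where the median of the 19 lay below it.

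Tbr1, a T-box transcription factor of deep-layer and early-born projection neurons, reached 5.70 in BUB/BnJ, 6.63 in NOD/LtJ, 5.73 in P/J and 5.39 in SJL/J. Among the 19 it ran from 3.56 through a median of 3.91 to 4.91. NOD/LtJ stood highest and the groups did not overlap. The mean of the 4 was at least 1.82-fold above the floor. Among the arrays left out, BALB/cByJ, at 5.44, exceeded SJL/J.

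Cck, the neuropeptide cholecystokinin made in many cortical neurons, was at 8.52 in BUB/BnJ, 8.02 in NOD/LtJ, 6.54 in P/J and 7.93 in SJL/J. The 19 had a lowest value of 4.56, a median of 5.11 and a highest value of 6.96. PL/J, at 6.96, and AKR/J, at 6.63, exceeded P/J, so the groups overlapped by 2 arrays. The mean of the 4 was 6.26-fold above the median of the 19.

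Nptx1, a secreted pentraxin that gathers AMPA receptors at excitatory synapses, was 7.10 in BUB/BnJ, 7.58 in NOD/LtJ, 7.18 in P/J and 7.49 in SJL/J. The 19 ran from 4.92 through 5.84 to 6.63, with SWR/J highest. The 4 arrays were close together and none of the 19 reached them, at a mean 2.83-fold above the median of the 19. A second, dimmer Nptx1 probe set was 4.31 in BUB/BnJ, 4.42 in NOD/LtJ, 3.82 in P/J and 3.49 in SJL/J, against a median of 3.21 and a highest value of 3.81 in the 19, all under log2 5, so only their order is read.

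Ccn3, a secreted matricellular protein, stood at 6.78 in BUB/BnJ, 6.93 in NOD/LtJ, 5.96 in P/J and 5.55 in SJL/J, and the 19 ran from 3.95 through 4.19 to 5.78. AKR/J and PL/J exceeded SJL/J. Car10, a carbonic anhydrase-related protein without enzyme activity that binds neurexins, was at 6.06 in BUB/BnJ, 5.89 in NOD/LtJ, 5.59 in P/J and 6.40 in SJL/J, and the 19 ran from 3.70 through 4.33 to 6.57. SWR/J, at 6.57, lay above all 4, and I/LnJ, at 6.14, above 3 of them, so Car10 overlapped the 19. Among the arrays left out, BALB/cByJ at 8.16, NON/LtJ at 7.74 and CE/J at 7.54 also exceeded all 4. A second Car10 probe set stayed near its median of 2.77 on every array of the 4, at differences of -0.04 to 0.04.

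Nrn1, encoding neuritin, an activity-regulated protein of neurite growth, was 5.46 in BUB/BnJ, 5.23 in NOD/LtJ, 4.99 in P/J and 5.44 in SJL/J. Across the 19 it ran from 2.49 through 2.94 to 3.81. The groups did not overlap and the 4 were close together, but P/J lay just under log2 5, which kept Nrn1 out of the 6. Its mean was at least 1.22-fold above the floor. BALB/cByJ, among the arrays left out, had 6.04 and exceeded all 4.

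**Figure D2:**
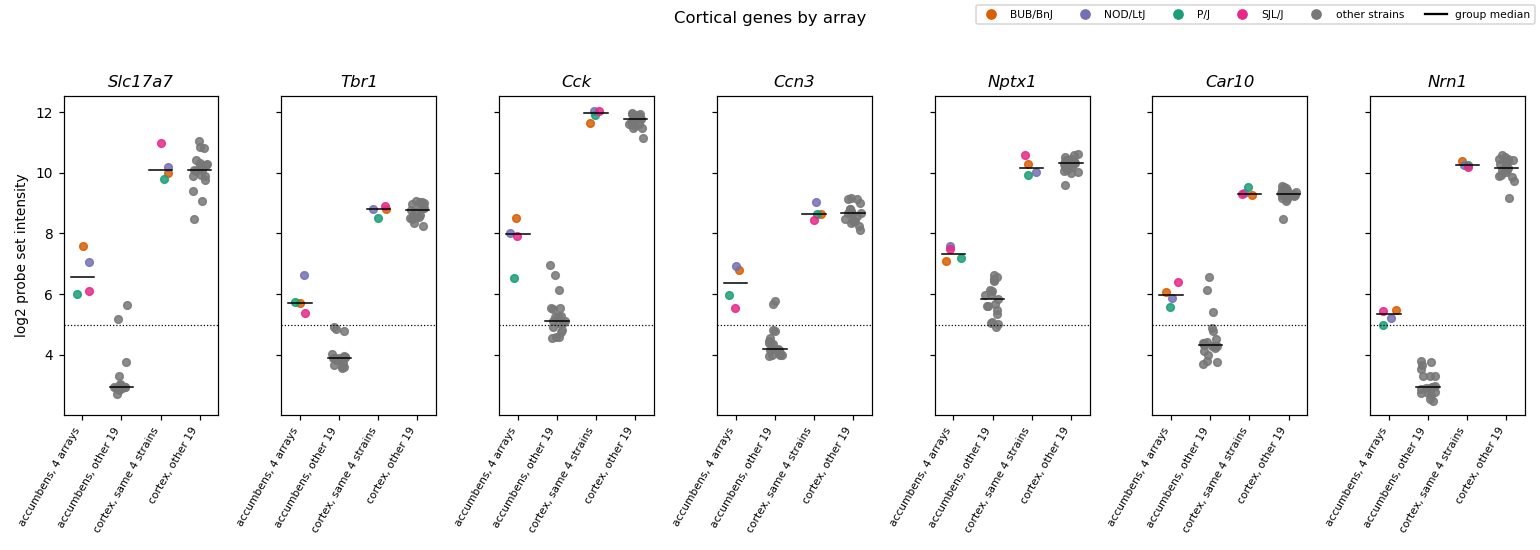
Log2 intensity of the 6 raised genes and Nrn1 is plotted by array for the 4 accumbens arrays, the other 19 accumbens arrays, the cortex arrays of the same 4 strains and the cortex arrays of the other 19 strains, with bars at the group medians and a dotted line at log2 5. In the accumbens the 4 coloured arrays lie above most or all of the 19, and in cortex they lie within the range of the 19 for Slc17a7, while Cck in NOD/LtJ and SJL/J, at 12.05 and 12.04, exceeds the highest of the 19, 11.97.

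The cortex arrays of the same strains are the control. Slc17a7 there was 10.00 in BUB/BnJ, 10.19 in NOD/LtJ, 9.78 in P/J and 10.97 in SJL/J, with a median of 10.10 over the 19 strains. The 4 lay inside the spread of the 19. The difference of means was 0.18 (SE 0.31, limma, adjusted p = 0.9995), and an exact two-sided permutation test of the means gave p = 0.619. Without the SJL/J cortex array the difference was -0.064. Nrn1 differed by 0.13 (SE 0.165, limma, adjusted p = 0.9995, exact permutation p = 0.491). Over all 10684 features, limma called 0 higher and 0 lower in the 4 strains at an adjusted p under 0.05 (0% each). Unadjusted, 278 features (2.60%) had p under 0.05, and with trend and robust variance the counts were 0 called and 274. Without the MA/MyJ cortex array 0 were called and 316 had an unadjusted p under 0.05. By the descriptive rule, 0 features were raised in the cortex arrays of all 4 strains, and 1, Fam133b, was above all 19 strains there (0.00936%). The 6 raised accumbens genes had median cortex differences between -0.15 and 0.19.

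Set against the cortex level of the same strain, the excess was unequal between genes. Excess here is the linear intensity of an accumbens array minus the median of the 19, as a percent of the same difference in the strain's own cortex array. The regions appear to have been normalized separately, so the percent is a guide to order within an array and not an absolute share. For Slc17a7 it was 17.98% in BUB/BnJ, 10.8% in NOD/LtJ, 6.54% in P/J and 3.03% in SJL/J. For Tbr1 it was 8.57% in BUB/BnJ, 19.6% in NOD/LtJ, 11.0% in P/J and 5.82% in SJL/J.

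For Nrn1 the excess was 2.74% in BUB/BnJ, 2.48% in NOD/LtJ, 1.99% in P/J and 3.05% in SJL/J. Ccn3 showed the highest among the 6 in BUB/BnJ, 24.2%, and also in NOD/LtJ, 20.5%, in P/J, 11.5%, and 8.75% in SJL/J, where Car10 was higher at 10.5%. Across 157 features at least 2 log2 units brighter in cortex than in the 19 accumbens arrays, with an accumbens median below log2 6 and a cortex median of at least log2 6, the median excess was 2.09% in BUB/BnJ, 4.14% in NOD/LtJ, 2.24% in P/J and 2.57% in SJL/J.

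The rule asks for over log2 5 on all 4 arrays, which features dimmer in cortex could hardly pass, so nothing is read from the bands of cortex level that follow. Among these 157 features, 80 (51.0%) were higher than the median of the 19 in all 4 arrays, against 9.54% of all features, and both numbers use the same 19 arrays as the choice of features. In the band from log2 6 to 7 in cortex, 0 of 67 were raised, and from 7 to 8, 0 of 54. From 8 to 9, 2 of 24 were raised, and at 9 or above 4 of 12 were, a band of only 12 features. C1ql3, a secreted synaptic organizer bright in cortex, was 6.56 in BUB/BnJ, 5.81 in NOD/LtJ, 4.87 in P/J and 6.04 in SJL/J against a median of 4.67, so P/J lay under the step. The highest of the 19, 5.30, exceeded P/J. Among the arrays left out, CE/J at 6.475 and NON/LtJ at 6.39 exceeded all of the 4 but BUB/BnJ. BALB/cByJ at 5.97 exceeded NOD/LtJ and P/J, and WSB/EiJ at 5.25 exceeded P/J. Neurod6, a projection neuron transcription factor, was 4.46 in BUB/BnJ, 5.53 in NOD/LtJ, 2.86 in P/J and 4.06 in SJL/J against a median of 2.89, so P/J lay at the level of the 19.

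**Figure D3:**
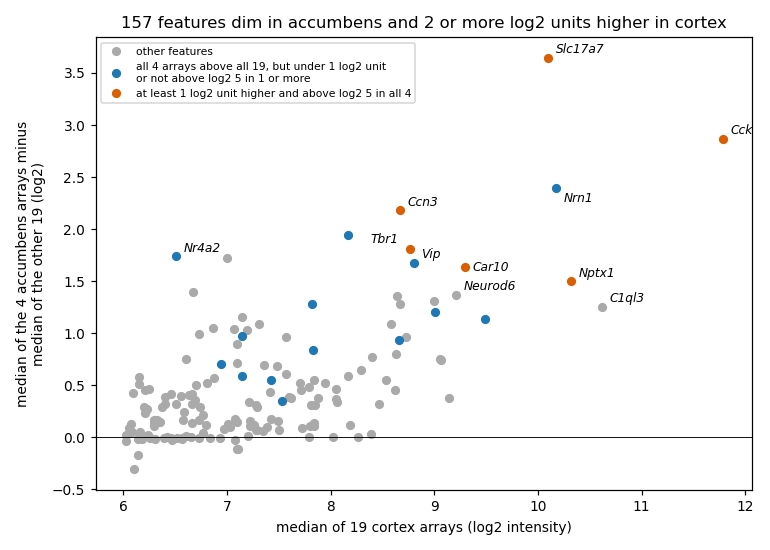
Each point is 1 of 157 features dim in the accumbens and at least 2 log2 units brighter in cortex, with the median of 19 cortex arrays on the x axis and the median of the 4 accumbens arrays minus the median of the other 19 on the y axis, in log2 units. Orange points are the 6 raised features, which all sit above 8 in cortex, and blue points are other features on which all 4 arrays exceeded all 19, which spread to lower cortex levels.

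A wider view needs no step of 1 log2 unit. All 4 arrays exceeded every one of the 19 for 28 features (0.262%), 26 of them with a gene name, and lay below every one for 3 (0.0281%), Pomgnt2, Klhl7 and Gabrg1. The 28 included Slc17a7, Tbr1 and Nptx1 of the 6. Of the 28, 26 were brighter in cortex than in accumbens over the 19 strains and 19 were at least 2 log2 units brighter, as were 270 of all features (2.53%). On 18 of the 28, all 4 arrays were above log2 5. Their median region difference was 3.32 log2 units, against -0.12 over all features, and the region difference and the difference between the 4 and the 19 share the 19 accumbens arrays.

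Vip, a peptide of a class of cortical GABA interneurons, was 4.18 in BUB/BnJ, 4.45 in NOD/LtJ, 4.58 in P/J and 3.58 in SJL/J, where the 19 ran from 2.56 through 2.64 to 2.80. All 4 values lay below log2 5, so only their order is read. Kcnj3, a G protein-gated potassium channel subunit, was 6.50 in BUB/BnJ, 7.15 in NOD/LtJ, 7.17 in P/J and 6.18 in SJL/J against 4.77 to 6.12 in the 19. Satb1, a chromatin organizer, was 6.22 in BUB/BnJ, 6.94 in NOD/LtJ, 6.82 in P/J and 7.34 in SJL/J against 5.17 to 6.04. Olfm1, a secreted glycoprotein of the brain, was 9.49 to 9.78 in the 4 arrays and 8.59 to 9.21 in the 19. Syn1, a synaptic vesicle protein, was 9.51 to 9.74 in the 4 arrays and 9.14 to 9.48 in the 19. These last differences are under 2-fold, and the 4 arrays were above every one of the 19. Among the arrays left out, BALB/cByJ exceeded all 4 for Satb1, at 7.50, and for Syn1, at 10.08. Kcnj3 in CE/J, at 6.63, exceeded BUB/BnJ and SJL/J. Olfm1 in BALB/cByJ, at 9.74, exceeded all of the 4 but NOD/LtJ. Bdnf, the neurotrophin, also lay above all 19, at values of 2.67 to 3.52 that are below log2 5. BALB/cByJ, at 3.105, exceeded P/J and SJL/J for Bdnf.

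Only 1 named gene was lowered by at least 1 log2 unit in all 4 (0.00936% of features). AW551984 was 5.04 in BUB/BnJ, 5.17 in NOD/LtJ, 4.39 in P/J and 4.89 in SJL/J, against 4.79 through a median of 6.36 to 7.36, and overlapped the 19.

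Layer genes as a set were higher in all 4 arrays about as often as any feature. Of 47 layer genes listed, 31 were measured, and 3 (9.68%) were higher than the median of the 19 in all 4 arrays, against 9.54% of all features. None was raised, and 1, Stard8, was above all 19. By list, 13 of 18 upper-layer genes, 9 of 12 layer 5 genes, 7 of 10 layer 6 genes and 2 of 7 layer 6b genes were measured. Few were at least 2 log2 units higher in the strain's own cortex array than the median of the 19 accumbens arrays. They numbered 7 in BUB/BnJ, 8 in NOD/LtJ, 9 in P/J and 7 in SJL/J, with 0 from layer 6. Most of the set could thus hardly show a cortical rise, and nothing on layer identity is read from the share. Some are brighter in the accumbens than in cortex. Foxp2, a forkhead factor of layer 6 and of spiny neurons, was 9.45 to 9.96 in the 4 arrays against a median of 9.67 in the 19, with a cortex median of 5.57.

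Fezf2, the layer 5 regulator, was 2.66 in BUB/BnJ, 3.14 in NOD/LtJ, 3.15 in P/J and 3.58 in SJL/J, where the 19 ran from 2.77 through 2.83 to 3.13. Its cortex median was 7.81, and 3 of the 4 arrays lay above all 19 while BUB/BnJ lay below them. All these accumbens values are under log2 5, so only their order is read, and NOD/LtJ and P/J barely passed the highest of the 19. Stard8, counted here with the upper layers, was 3.85 to 4.26 in the 4 and 2.91 to 3.83 in the 19, all under log2 5. Upper-layer Cux2 was 6.50 in BUB/BnJ, 7.33 in NOD/LtJ, 7.49 in P/J and 7.28 in SJL/J, against 5.94 through 6.84 to 7.36, so the groups overlapped.

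Some layer genes differed on 1 array from the other 3 of the 4 in both regions. Rorb, a nuclear receptor of layer 4, was 4.57 in the P/J accumbens and 3.75 in its cortex, where the medians of the 19 were 6.02 and 6.84 and their lowest values, 4.33 and 3.33, were lower still. Crym, a thyroid hormone-binding protein, was 5.66 in the NOD/LtJ accumbens and 3.68 in its cortex, where the lowest of the 19 were 9.88 and 7.78, so NOD/LtJ lay below all of them. Rspo1, a Wnt activator, was 4.65 in the P/J accumbens and 6.93 in its cortex, where the highest of the 19 were 3.97 and 6.50, so P/J lay above all of them.

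Ccn2, the growth factor-like protein that marks layer 6b, was 3.99 in BUB/BnJ, 6.75 in NOD/LtJ, 4.74 in P/J and 2.93 in SJL/J, against 2.72 through 2.97 to 4.60. NOD/LtJ and P/J lay above all 19, BUB/BnJ was within their range, and SJL/J was close to their median. In NOD/LtJ the accumbens excess came to 181% of the own cortex level, the cortex array being dim for this gene at 5.98.

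Claustrum and endopiriform genes gave 8 of 12 measured, with 1 (12.5%) higher in all 4, against 9.54% of all features. That 1 was Nr4a2, a nuclear receptor of the claustrum and of layer 6b, at 4.97 in BUB/BnJ, 6.39 in NOD/LtJ, 5.19 in P/J and 4.68 in SJL/J. The 19 ran from 3.19 through 3.34 to 4.64, so no array of the 19 reached the lowest of the 4, and NOD/LtJ stood highest. Among the arrays left out, CE/J at 4.82 and BALB/cByJ at 4.71 exceeded SJL/J. Its excess was 36.3% of the own cortex level in BUB/BnJ, 136% in NOD/LtJ, 86.1% in P/J and 21.2% in SJL/J, each above that array's percent for Slc17a7. These percents rest on 1 probe set. BUB/BnJ, SJL/J and the median of the 19 lie under log2 5, so the size of the percents is not read. Other Nr4a2 probe sets disagreed: 2 of them differed by over 1 log2 unit from the 19, and in NOD/LtJ only, at 5.57 and 5.15. The other listed claustrum genes did not follow. Gnb4, a G protein subunit, was 7.93 to 8.56 in the 4 arrays and 7.63 to 8.75 in the 19. Synpr, a synaptic vesicle protein, was 10.48 to 11.13 against 10.20 to 11.13, and both are bright in the accumbens itself. In each strain only 2 of the 8 were at least 2 log2 units higher in its own cortex array than the accumbens median.

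Olfactory cortex genes gave 4 of 6 measured, with 1 (25%), Trps1, higher in all 4, against 9.54% of all features. Trps1 was at 7.28 to 7.70 in the 4 arrays against 6.80 to 7.73 in the 19. None of the measured genes was at least 2 log2 units higher in the strain's own cortex array than the accumbens median. Slc17a6, the vesicular glutamate transporter of subcortical neurons, was 3.63 in BUB/BnJ, 5.16 in NOD/LtJ, 4.33 in P/J and 3.50 in SJL/J, against 2.86 through 3.78 to 6.32, and overlapped the 19 throughout. Of 8 olfactory bulb genes 1 was measured, Tpbg, at 7.02 to 7.43 in the 4 arrays against 6.06 to 7.61.

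**Figure D4:**
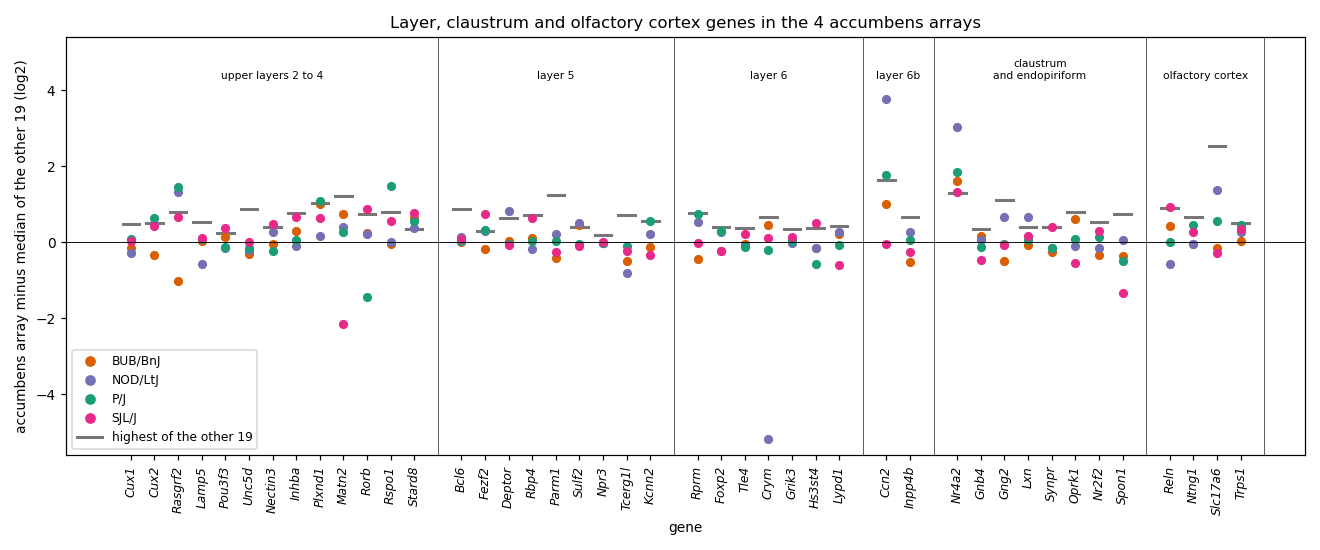
Each measured layer, claustrum and olfactory cortex gene is a column, the coloured points are the 4 accumbens arrays as log2 differences from the median of the other 19, and the grey bar is the highest of those 19. Most points lie near 0, Nr4a2 has all 4 points above the grey bar, and Ccn2 has NOD/LtJ at 3.78.

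Genes of other cell types also differed on some of the 4 arrays. Myelin genes, 12 of 13 measured, had median differences of 0.50 in BUB/BnJ, 0.81 in NOD/LtJ, -0.47 in P/J and 0.38 in SJL/J. Their summed intensity was 19133 to 28432 on the 4 arrays, against 11654 to 28853 on the 19. Meningeal genes, 5 of 8 measured, had medians of 0.09 in BUB/BnJ, 0.08 in NOD/LtJ, 1.19 in P/J and 0.18 in SJL/J, with summed intensity of 2110 to 7556 against 728 to 14021. Their part in the cortical rise was not tested.

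Gfap, the astrocyte filament, was 5.98 in BUB/BnJ, 7.03 in NOD/LtJ, 5.30 in P/J and 6.20 in SJL/J, against 3.97 through 4.84 to 6.16, and 5 of the 19 exceeded the lowest of the 4. Over the astrocyte list of 8 measured genes, summed intensity was 10381 to 14388 in the 4 arrays and 10020 to 14398 in the 19. Interneuron genes, 13 of 16 measured, had 4 (30.8%) higher in all 4 arrays, against 9.54% of all features, and 1 (7.69%) lower, against 8.75%. Their summed intensity was 8714 to 11169, against 8515 to 10771. The 4 higher genes were Npy, Pvalb, Vip and Crhbp. Vip was under log2 5 on all 4 arrays, and Crhbp was at 3.616 in SJL/J against a median of 3.612. Such shares were also found for microglia genes (37.5%), neuroblast genes (40%) and immediate early genes (30%), so the share is not particular to interneurons. Pvalb, of fast-spiking interneurons, was 4.35 in BUB/BnJ, 5.76 in NOD/LtJ, 5.90 in P/J and 4.31 in SJL/J, against 2.51 through 3.70 to 7.61.

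**Figure D5:**
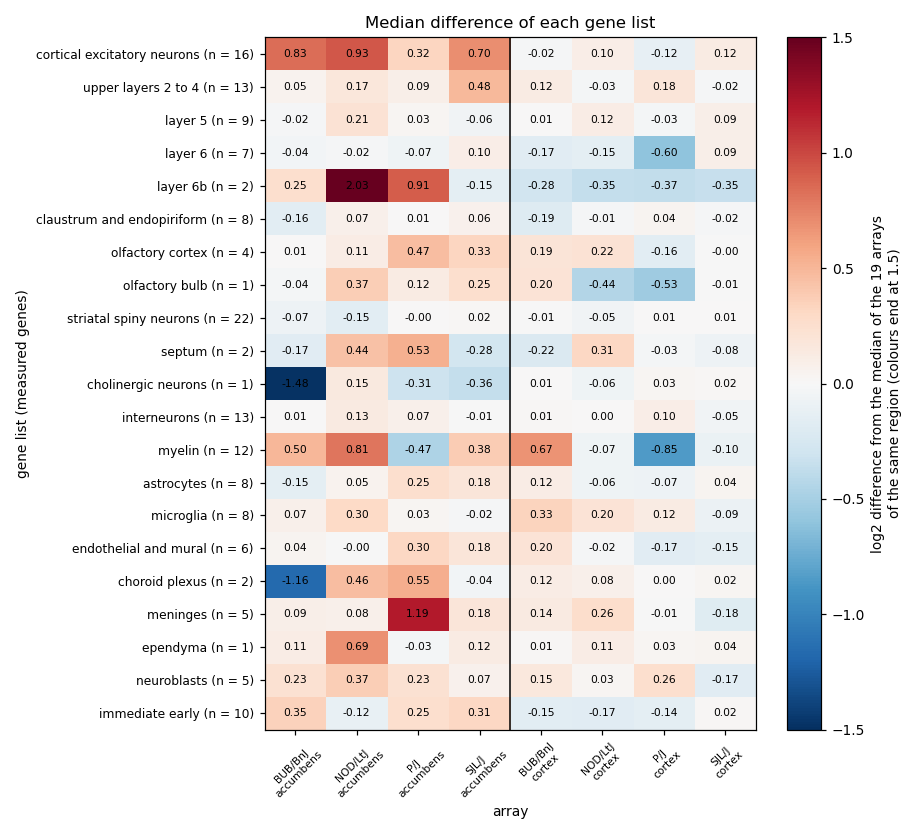
Rows are gene lists with the number of measured genes, columns are the 4 accumbens arrays and the 4 cortex arrays of the same strains, and each cell is the list's median log2 difference from the median of the 19 arrays of that region. Cortical excitatory neuron genes are 0.32 to 0.93 in the accumbens columns, while spiny neuron genes lie between -0.15 and 0.02.

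Each array also had its own set. At least 1 log2 unit above the median and above log2 5 were 83 features in BUB/BnJ (0.777%), 111 in NOD/LtJ (1.04%), 84 in P/J (0.786%) and 65 in SJL/J (0.608%). Each of the 19 set against the other 18 had 20 to 85, with a median of 53. NOD/LtJ was above that range. Of these, 17 in BUB/BnJ, 11 in NOD/LtJ, 17 in P/J and 20 in SJL/J were not shared with the other arrays of the 4, which lay within 0.5 of the median. The same feature was also at least 1 log2 unit above in the strain's own cortex for 10 of the 17 in BUB/BnJ, 3 of the 11 in NOD/LtJ, 6 of the 17 in P/J and 6 of the 20 in SJL/J. Sdc4, a heparan sulfate proteoglycan, was at 7.52 in the SJL/J accumbens and 7.51 in its cortex, against medians of 4.68 and 4.72 and highest values of 7.45 and 7.64 in the 19.

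Some genes raised in 3 of the 4 arrays also differed among the cortex arrays of the 4 strains. H2-D1, a class I histocompatibility gene read here by a probe set prone to cross-hybridisation, was 8.72 in BUB/BnJ, 6.68 in NOD/LtJ, 8.14 in P/J and 3.57 in SJL/J accumbens, and in cortex it was 8.91 in BUB/BnJ, 6.91 in NOD/LtJ, 9.00 in P/J and 5.02 in SJL/J. The medians of the 19 were 5.53 in accumbens and 6.88 in cortex, so NOD/LtJ was near the median in cortex. Galc, a lysosomal galactosidase, was 6.50 in BUB/BnJ, 6.66 in NOD/LtJ, 6.71 in P/J and 4.37 in SJL/J accumbens, with a cortex value in SJL/J of 2.51 where the other 3 had 6.01 to 6.13 and the median of the 19 was 4.39. Satb1 and C1ql3 were raised in 3 of the 4 accumbens arrays while in the cortex arrays of the 4 strains Satb1 was 9.25 to 9.65, against a median of 9.49, and C1ql3 was 10.42 to 10.70, against 10.62.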

How the data were processed

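RNA of prefrontal cortex and nucleus accumbens was hybridised to 1-colour Affymetrix arrays. The deposited intensity values, 1 per probe set, are linear. Per the submitters' processing notes they come from GCRMA, a method for background correction, quantile normalization and probe summary, for which no version was stated. They were turned to log2 with no pseudocount. Control probe sets were left out, features were kept above log2 5 on at least 13 of 54 paired arrays, and each gene was represented by its brightest probe set, which left 10684 features, 8811 with 1 gene symbol. Strains and groups came from the labels, and columns of no sample numbered 0. The members and lists were chosen with earlier results of these data known.

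The accumbens contrast was described by counts, medians and per-array values. In cortex, 4 strains were set against 19 with limma 3.58.1 in R 4.3.3 (Benjamini-Hochberg, threshold 0.05), checked on simulated data, and exact permutation tests. Named genes followed a fixed rule: the 2 markers, the features raised, lowered or just at the threshold, the largest list members, all measured layer, claustrum and olfactory cortex genes, and up to 5 per array; the text names part of them. The genes above or below all 19 arrays, C1ql3, Neurod6, H2-D1, Galc and Fam133b were named after their values were seen. Alternatives were other filters, steps, normalization, probe set rules and sets of arrays. No genome was used for the intensity values, and the promoter windows came from build GRCm38.p6. Other steps ran in Python 3.11.15 (scipy 1.17.1, pandas 2.3.3, matplotlib 3.10.9, numpy 2.4.6). The number of arrays limits the precision. P-values rest on the spread between strains, which includes the spread between pools.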

Additional observations from a re-analysis of the deposited data

Results flagged for a closer look

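Nr4a2 was higher in all 4 accumbens arrays and lower in all 4 cortex arrays of the same strains than the medians of the 19, with median differences of 1.74 in accumbens and -0.45 in cortex. This difference between regions was not tested. The accumbens median of 3.34 and the values of BUB/BnJ, 4.97, and SJL/J, 4.68, lie under log2 5, so the order is read and not the size. Among 276 gene and region groups of 4 arrays, 35 had 1 array far from the other 3 by Dixon's test, which chance flags in about 1 of 20 groups. Genes named for 1 array alone were picked for such a gap in the accumbens. The flag sets an array against the other 3 and not against the 19. Some flagged values, such as Crym in NOD/LtJ, lay outside the range of the 19, and others lay inside it. In cortex, Pvalb in NOD/LtJ, 8.64, was at the median of the 19, 8.64, and Gng2 in P/J was under their highest, 9.15. In accumbens, Egr1 and Nr4a1 in SJL/J were under the highest of the 19, 11.03 and 10.28.

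In accumbens, the BUB/BnJ array stood apart for an unnamed probe set at 8.96 (others 7.37 to 7.53) and Rpp25l at 6.65 (others 4.98 to 5.11). In accumbens, the NOD/LtJ array stood apart for Crym at 5.66 (others 10.61 to 11.27), Deptor at 5.03 (others 4.15 to 4.24), Lamp5 at 8.69 (others 9.31 to 9.37), P2ry12 at 7.19 (others 6.05 to 6.19), Rai14 at 5.01 (others 3.56 to 3.58) and Trpc4 at 4.15 (others 3.77 to 3.84). In accumbens, the P/J array stood apart for an unnamed probe set at 5.67 (others 3.35 to 3.65), an unnamed probe set at 6.82 (others 3.35 to 3.44), an unnamed probe set at 8.12 (others 2.9 to 2.98), Dcn at 4.97 (others 4.06 to 4.09), Fmod at 5.09 (others 3.3 to 3.46), Gabrg1 at 7.16 (others 7.4 to 7.41) and Snrnp35 at 6.82 (others 4.95 to 5.16). In accumbens, the SJL/J array stood apart for an unnamed probe set at 9.21 (others 7.43 to 7.65), Ddit4l at 7.93 (others 5.53 to 5.59), Egr1 at 10.75 (others 10.39 to 10.44), Nr4a1 at 9.2 (others 8.65 to 8.72) and Synpr at 11.13 (others 10.48 to 10.58). In cortex, the NOD/LtJ array stood apart for Crym at 3.68 (others 7.85 to 8.62), Oprk1 at 3.07 (others 2.64 to 2.69), Pvalb at 8.64 (others 8.88 to 8.92) and Timmdc1 at 6.66 (others 5.45 to 5.46). In cortex, the P/J array stood apart for an unnamed probe set at 7.33 (others 3.2 to 3.36), an unnamed probe set at 7.8 (others 2.99 to 3.11), Gng2 at 9.13 (others 8.98 to 9.0), Plxnd1 at 6.67 (others 6.08 to 6.15), Rorb at 3.75 (others 6.67 to 6.9), Rspo1 at 6.93 (others 5.05 to 5.1), Rxrg at 3.3 (others 3.04 to 3.06) and Tle4 at 7.12 (others 7.64 to 7.74). In cortex, the SJL/J array stood apart for an unnamed probe set at 9.03 (others 7.6 to 7.61), AW551984 at 2.82 (others 2.45 to 2.46) and Sec24b at 6.05 (others 5.69 to 5.72).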

How the results depend on the processing

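The 6 raised genes were the same 6 without the filter, with filters at log2 7 or on 4 arrays, with quantile normalization over both regions, with centring, with every probe set, without probe sets prone to cross-hybridisation, against 23 arrays, without C57BR/cdJ and C58/J, and without AKR/J and PL/J, the last chosen after seeing the data. The count was 17 at a step of 0.5 log2 units, 1 at 1.5 and 28 when beyond all 19 arrays replaced the step, and leaving out 1 of the 4 arrays gave 7 to 13, always including the 6. Lowered features numbered 0 with the log2 7 filter, 4 at a step of 0.5, 0 at 1.5, 3 when beyond all 19, and 1 to 3 when 1 array was left out. The cortical list's median difference was 0.90 with the log2 7 filter, against 0.49, since fewer dim genes are counted. In cortex, every probe set gave 1 feature lower, Ank3, and other settings gave 0. The Slc17a7 cortex difference ranged from -0.064 without SJL/J to 0.33 when 1 strain was left out. No paired analysis was possible because the 4 and the 19 share no strain, but each strain's own cortex array can be subtracted. With strain as a block in this way, chosen after seeing the data, the same 6 genes were raised and 0 features were lowered. For Slc17a7, accumbens minus own cortex was then -2.43 in BUB/BnJ, -3.13 in NOD/LtJ, -3.77 in P/J and -4.88 in SJL/J, against -8.14 to -4.66 in the 19. By this measure SJL/J lay within the range of the 19 for Slc17a7. The groups also overlapped for Cck and Car10, and did not for Tbr1, Ccn3 and Nptx1. For Car10 the highest of the 19, -2.69, lay above all 4. Signal limits the dim genes: differences that involve values under log2 5 are no fold, and only their order is read.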

Other observations

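AKR/J and PL/J, 2 of the 19, had the next highest values of the 6 raised genes by their median. The median difference of the 6 raised genes was 1.31 in AKR/J and 1.22 in PL/J, against 2.19 in BUB/BnJ, 2.73 in NOD/LtJ, 1.60 in P/J and 1.86 in SJL/J, and the arrays left out had 0.20 to 0.72. For single genes the order differed: for Cck both exceeded P/J, and for Ccn3 both exceeded SJL/J.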
